A study of Mus musculus with 10 samples.

Results

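The transcripts of 9 enzymes that make or cut phosphatidylcholine and phosphatidylethanolamine were followed in the PFC of 10 mice. The 9 genes were taken by name from the 22000 rows of the table of counts: *Chka*, *Chkb*, *Pcyt1a*, *Pcyt1b*, *Pcyt2* and *Cept1* of the synthesis route, and the intracellular phospholipases *Ddhd1*, *Ddhd2* and *Pnpla6*. The list was chosen by function but also selected on the WT against KO expression values of these same mice, which were known when it was made. The genotype differences are therefore given below as a description and without p-values, apart from their interaction with RIN class. All 9 were among the 14344 genes that passed the filter on low counts.

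The KO group held 5 mice homozygous for the *lu* allele of *Zbtb16*, a spontaneous nonsense point mutation present in every cell and carried on the B6.C3-*Zbtb16* lu/J background, and the WT group 5 wild-type mice. All were 7 weeks old, labelled male, with no treatment in the labels, and each gave 1 stranded mRNA library. *Zbtb16* itself had 42.1 to 52.8 CPM (counts per 1000000 of the TMM-scaled library) in KO mice and 70.7 to 88.3 CPM in WT mice, so its transcript was lower but present in each KO mouse. KO mouse 3 went against its label, with 1 count over 4 Y-linked genes where the other mice had 4376 to 8182, and the genotype values of the 9 genes and of *Etnppl* are also given without it. KO mouse 5, the most deeply sequenced, stood apart for several genes below and in its counts as a whole. The tissue held the cortical markers *Slc17a7*, *Camk2a*, *Neurod6* and *Tbr1* at 5134 to 6423 CPM in sum. Markers of striatal medium spiny neurons, which a PFC dissection can include, summed to 250.3 to 491.5 CPM.

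Phosphatidylcholine is the main phospholipid of most cell membranes, and neurons need it wherever dendrites and axons grow. In the Kennedy pathway, choline is phosphorylated by a choline kinase, activated to CDP-choline by CTP:phosphocholine cytidylyl transferase, and joined to diacylglycerol by a phosphotransferase at the endoplasmic reticulum. The cytidylyl transferase step usually sets the rate. Ethanolamine runs through a parallel branch. On the other side, phospholipases such as DDHD1, DDHD2 and PNPLA6 remove acyl chains inside the cell, and loss of each of these enzymes in humans causes a hereditary spastic paraplegia.

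Levels of the 9 genes were first set in order as RPKM, CPM per kilobase of exon, over all 10 mice. *Pcyt2*, the ethanolamine cytidylyl transferase, was the most abundant at 15.2 ± 0.82 RPKM (SD, n = 10). *Pcyt1b* followed at 13.6 ± 2.34 RPKM (SD, n = 10) and *Cept1* at 13.4 ± 0.67 RPKM (SD, n = 10), and these neighbours were not separated, since *Pcyt2* lay above *Pcyt1b* in 7 of the 10 mice and *Pcyt1b* above *Cept1* in 5. *Ddhd2* (10.7 RPKM) lay below *Cept1* and above *Ddhd1* (7.01 RPKM) in every mouse. *Ddhd1* and *Chka* (6.54 RPKM) overlapped, with *Ddhd1* higher in 8 mice, and *Chka* lay above *Pcyt1a* in all 10. *Pcyt1a* (5.80 RPKM) exceeded *Pnpla6* (5.17 RPKM) within each of the 10 mice, although their ranges overlapped, and *Chkb* was the least abundant at 1.69 ± 0.23 RPKM (SD, n = 10). The order depended on the length used. With the longest transcript in place of all annotated exons, *Pcyt2* stayed first and *Chkb* last. *Ddhd2* moved from rank 4 to rank 2 and *Chka* from rank 6 to rank 3. *Pcyt1b* fell from rank 2 to rank 4 and *Cept1* from rank 3 to rank 5.

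**Figure D1:**
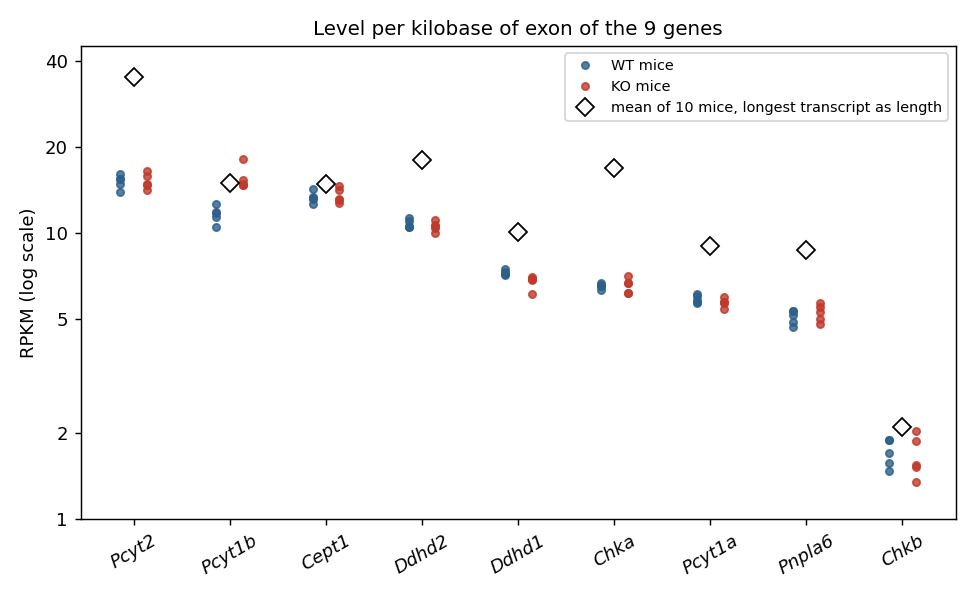
RPKM (log scale) of the 9 genes in each WT and KO mouse, ordered by the mean of the 10 mice, with open diamonds for that mean when the longest transcript is the length. *Chkb* lies below all other genes, at 1.35 to 2.03 RPKM, and *Pcyt1b* is the gene whose KO mice (14.8 to 18.1 RPKM) lie wholly above its WT mice (10.5 to 12.7 RPKM).

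Choline kinase, the entry step, was represented mostly by *Chka* (ENSMUSG00000024843.15, chromosome 19 of GRCm38 from 3851773 to 3894369, plus strand). *Chka* was at 78.8 ± 4.51 CPM among KO against 78.5 ± 1.70 CPM among WT mice (SD, n = 5 each), and the genotypes overlapped. The KO values were the more spread, with *Chka* at 80.1, 85.0, 74.4, 80.1 and 74.3 CPM in KO mice 1 to 5 and between 75.7 and 80.3 CPM in WT mice. The pair of low KO values of *Chka* came from KO mice 3 and 5, which also had the lowest RNA integrity numbers (RIN) of the KO group. *Chkb*, the second choline and ethanolamine kinase (ENSMUSG00000022617.15, chromosome 15 from 89426360 to 89429908, minus strand), had 5.10 ± 0.86 CPM among KO against 5.23 ± 0.58 CPM among WT mice (SD, n = 5 each). Its fitted log2 fold change of -0.21 (SE 0.12) was larger than the difference of these means, and without surrogate variables it was -0.03. Another protein-coding gene on the same strand, *Gm44502*, covers 50.7% of the exon bases of *Chkb*. Reads that lie on both genes may have been left uncounted, so the level of *Chkb* and its place in the order are uncertain.

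At the rate-setting step, *Pcyt1b* was higher in every KO mouse than in any WT mouse. The gene encodes the beta form of the cytidylyl transferase, known for its expression in brain, and lies on the X chromosome (ENSMUSG00000035246.16, from 93654863 to 93749951, plus strand), with 2 annotated coding transcripts that gene counts do not tell apart. *Pcyt1b* reached 81.9, 79.5, 79.1, 79.1 and 96.8 CPM in KO mice 1 to 5. In WT mice 1 to 5 *Pcyt1b* was at 67.8, 62.9, 56.3, 61.0 and 63.2 CPM. In the KO group 4 mice thus lay within 3 CPM of each other and KO mouse 5 well above them. The means were 83.3 ± 7.66 CPM among KO against 62.2 ± 4.16 CPM among WT mice (SD, n = 5 each), 133.8% of the WT level, with a log2 fold change of 0.40 (SE 0.05) in the fit over all genes.

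Without KO mouse 5 the KO mean of *Pcyt1b* was 79.9 ± 1.34 CPM (SD, n = 4). The mean was 84.3 ± 8.41 CPM (SD, n = 4) without KO mouse 3. Since every KO mouse lay above every WT mouse, no subset of these mice could overlap. The values without a mouse and within the RIN classes therefore show the size of the difference only. Among mice with a RIN of 9.5 or more *Pcyt1b* stood at 79.1 to 81.9 CPM in 3 KO mice and 62.9 to 67.8 CPM in 3 WT mice. Among those with a RIN of 8.3 or less it stood at 79.1 and 96.8 CPM in 2 KO mice and 56.3 and 61.0 CPM in 2 WT mice. The log2 ratio of the means was 0.31 in the higher and 0.58 in the lower class. As an interaction of genotype and RIN class, this difference was -0.28 (95% interval -0.52 to -0.03), with an unadjusted p = 0.0313, the smallest of the 9 genes, and an adjusted p = 0.996 in edgeR's test. The interaction was added after values were seen and uses the values on which the list was selected, so it too is a description. The lower class held KO mouse 5, at 96.8 CPM. These summed markers of excitatory neurons were at 5533 to 6423 CPM in KO mice and 5134 to 5826 CPM in WT mice, highest in KO mouse 5, where those of inhibitory neurons were lowest (739.2 CPM against 774.3 to 882.2 CPM elsewhere), and none of these markers was at 0 or passed FDR < 0.05. Their part in the difference was not tested. Summed striatal markers were at 279.1 to 414.6 CPM in KO mice and 250.3 to 491.5 CPM in WT mice. With a score of the striatal markers as covariate in place of the surrogate variables, the log2 fold change of *Pcyt1b* was 0.385 and the gene was no longer among those past the threshold. In bulk tissue, fewer cells of a type and less RNA per cell cannot be told apart.

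**Figure D2:**
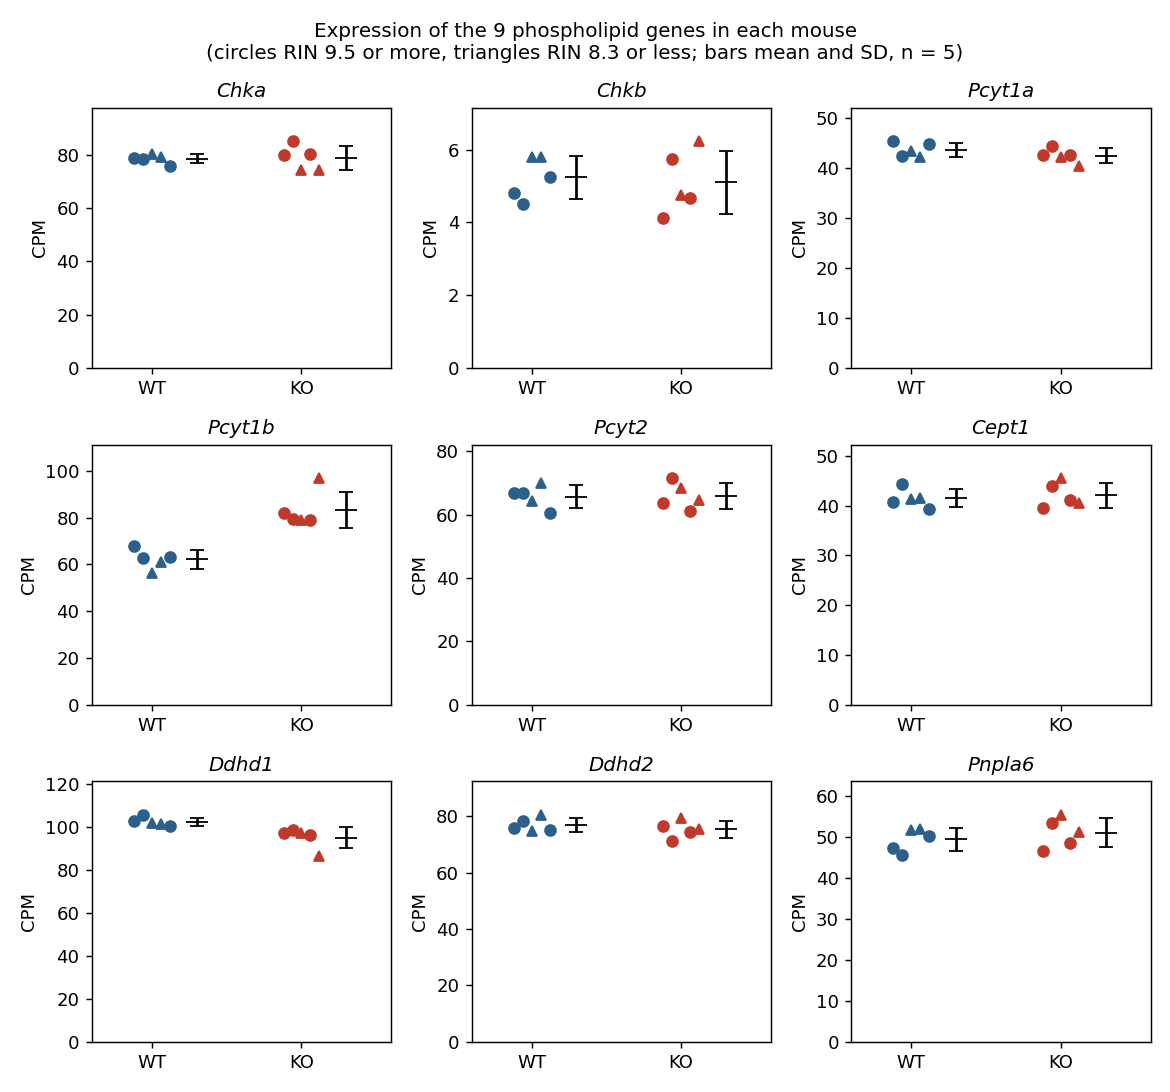
CPM of each of the 9 genes in each mouse, WT in blue and KO in red, with circles for a RIN of 9.5 or more, triangles for a RIN of 8.3 or less, and the mean and SD (n = 5) beside them on axes that start at 0. *Pcyt1b* (KO 79.1 to 96.8, WT 56.3 to 67.8 CPM) and *Ddhd1* (KO 86.3 to 98.4, WT 100.4 to 105.3 CPM) are the panels without overlap.

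The alpha form, *Pcyt1a*, which most tissues use (ENSMUSG00000005615.15, chromosome 16 from 32430921 to 32475070, plus strand), did not follow its paralogue. *Pcyt1a* had 42.4 ± 1.44 CPM among KO against 43.6 ± 1.40 CPM among WT mice (SD, n = 5 each), with 4 of 5 KO mice below the WT mean and a log2 fold change of -0.03 (SE 0.05). Per kilobase, *Pcyt1b* made up 66.4% ± 1.26 (SD, n = 5) of the summed RPKM of the pair in WT mice and 73.0% ± 2.22 (SD, n = 5) in KO mice. Its share ranged from 64.3% to 67.5% in WT and from 71.2% to 76.8% in KO mice. The sum of the pair was 17.5 ± 0.90 RPKM (SD, n = 5) in WT mice and 21.3 ± 1.28 RPKM (SD, n = 5) in KO mice. With the longest transcripts as length the share was lower, at 58.3% in WT (56.1% to 59.5%) and 65.7% in KO mice (63.7% to 70.1%). Another length scales a gene alike in every mouse, so it could not change the order of the mice. With *Pcyt1a* at nearly the same level in both genotypes, the share and the sum restate the difference of *Pcyt1b* and are not a further result. In the other paralogue pairs *Chkb* held 20.7% of its pair in WT and 20.2% in KO mice, and *Ddhd1* 40.3% in WT and 39.0% in KO mice, each with overlapping ranges. Without KO mouse 3 the KO shares were 73.2% for *Pcyt1b*, 20.3% for *Chkb* and 39.2% for *Ddhd1*, with the ranges overlapping or not as before.

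**Figure D3:**
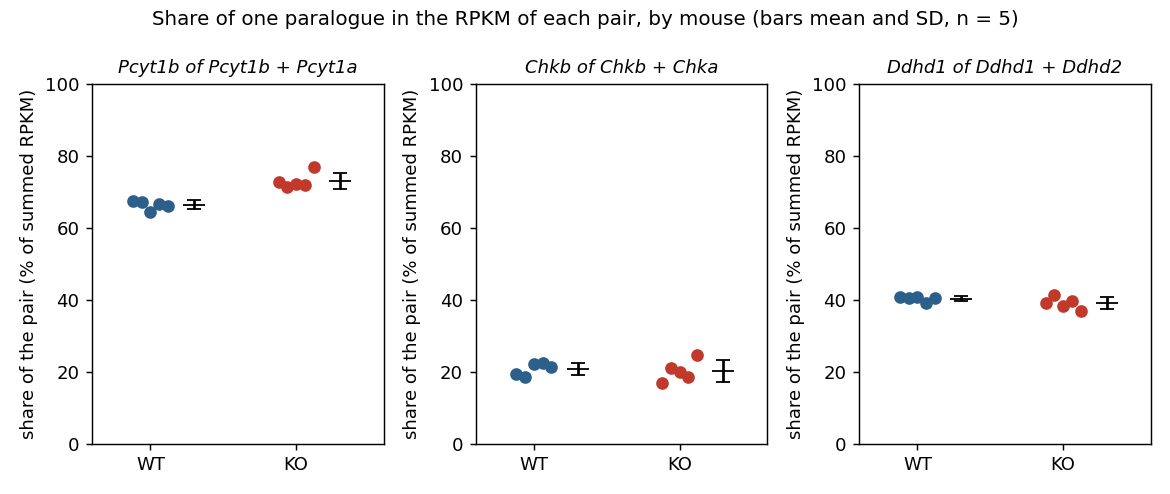
Share of *Pcyt1b*, *Chkb* and *Ddhd1* in the summed RPKM of the pair each forms with its paralogue, in percent, for each WT and KO mouse, with mean and SD (n = 5). For *Pcyt1b* all KO mice (71.2% to 76.8%) lie above all WT mice (64.3% to 67.5%), and for the other pairs the genotypes overlap.

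In the ethanolamine branch, *Pcyt2* (ENSMUSG00000025137.15, chromosome 11 from 120610087 to 120617936, minus strand) had 65.9 ± 4.004 CPM among KO against 65.7 ± 3.55 CPM among WT mice (SD, n = 5 each). *Cept1*, which completes both phosphatidylcholine and phosphatidylethanolamine (ENSMUSG00000040774.15, chromosome 3 from 106502260 to 106547802, minus strand), had 42.1 ± 2.49 CPM among KO against 41.5 ± 1.84 CPM among WT mice (SD, n = 5 each). For these genes the WT and KO ranges covered each other almost fully, and the log2 fold changes were -0.02 (SE 0.05) for *Pcyt2* and 0.02 (SE 0.06) for *Cept1*. *Dennd2d* on the opposite strand shares 24.7% of the exon bases of *Cept1*. If counting did not use strand, reads that lie on both genes may have been left uncounted. The level of *Cept1* and its place in the order are therefore uncertain too.

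*Ddhd1*, a phospholipase A1 that prefers phosphatidic acid (ENSMUSG00000037697.19, chromosome 14 from 45588467 to 45658143, minus strand), was lower in every KO mouse than in any WT mouse, by a small margin. KO mice 1 to 5 had *Ddhd1* at 97.0, 98.4, 97.1, 96.3 and 86.3 CPM. WT mice 1 to 5 had *Ddhd1* at 102.8, 105.3, 101.9, 101.3 and 100.4 CPM. The gap between the highest KO and the lowest WT mouse was thus about as wide as the spread within 4 of the KO mice, and KO mouse 5 was again apart, this time below the rest. The KO mean was 92.9% of the WT mean and the fitted log2 fold change -0.08 (SE 0.04), which did not place *Ddhd1* among the genes past the threshold in any of the 17 alternatives run. Without KO mouse 5 the KO mean was 97.2 ± 0.90 CPM (SD, n = 4) against 102.3 ± 1.90 CPM (SD, n = 5) in WT mice. The KO mean was 94.5 ± 5.54 CPM (SD, n = 4) without KO mouse 3. *Ddhd1* values of KO mice also lay below those of WT mice within both RIN classes, at 97.2 against 102.8 CPM in the higher and 91.7 against 101.6 CPM in the lower class (means of 3 and of 2 mice a genotype).

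The related enzymes did not separate. *Ddhd2*, a triglyceride and phospholipid lipase of neurons (ENSMUSG00000061313.8, chromosome 8 from 25725346 to 25754596, minus strand), had 75.4 ± 2.97 CPM among KO against 76.9 ± 2.35 CPM among WT mice (SD, n = 5 each). *Pnpla6*, the neuropathy target esterase that deacylates phosphatidylcholine (ENSMUSG00000004565.15, chromosome 8 from 3515384 to 3544267, plus strand), had 50.9 ± 3.51 CPM among KO against 49.3 ± 2.79 CPM among WT mice (SD, n = 5 each). Log2 fold changes were -0.02 (SE 0.04) for *Ddhd2* and -0.01 (SE 0.05) for *Pnpla6*, and that of *Pnpla6* changed sign to 0.05 without surrogate variables. Without KO mouse 3, KO means were 79.9 CPM for *Chka*, 5.18 CPM for *Chkb*, 42.5 CPM for *Pcyt1a*, 65.3 CPM for *Pcyt2*, 41.2 CPM for *Cept1*, 74.3 CPM for *Ddhd2* and 49.9 CPM for *Pnpla6*, and all 7 still overlapped with WT mice.

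Of the 9 genes, *Pcyt1b* alone was past FDR < 0.05, so 1 was higher and 0 lower in KO mice. Of all 14344 genes tested, 0.844% were past this threshold, with 0.600% of the tested genes in the direction of higher and 0.244% in that of lower KO values. Nothing is read from the count, because the genes were gathered with this contrast in view, and the same holds for the 2 genes whose genotypes did not overlap, beside 1.58% of all tested genes (0.899% with KO mice above, as for *Pcyt1b*, and 0.683% with KO mice below, as for *Ddhd1*). The median log2 fold change of the 9 genes was -0.02, with 3 above and 6 below 0, and that of all tested genes was -0.0044.

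The RIN, a measure of RNA integrity given in the labels, had no part in the choice of the genes and could be tested. It was 9.5 or more in 6 mice and 8.3 or less in 4, with 3 and 2 of each genotype. None of the 9 genes passed FDR < 0.05 between these classes in edgeR's quasi-likelihood test, where 0.335% of all genes did, and 1 had an unadjusted p under 0.05, as had 10.8% of all genes. DESeq2 called none either, and the adjusted p-values of edgeR ran from 0.455 to 0.998. The gene with the smallest p was *Pnpla6*, which was at 48.5 ± 2.83 CPM (SD, n = 6) in the higher and 52.5 ± 1.83 CPM (SD, n = 4) in the lower class, a log2 difference of -0.11 (95% interval -0.22 to -0.0015, unadjusted p = 0.0473, adjusted p = 0.455 in edgeR's test). For *Pcyt1b* the log2 difference was -0.0010 (interval -0.14 to 0.14) and for *Ddhd1* 0.05 (interval -0.04 to 0.14), with adjusted p-values of 0.998 and 0.737 in edgeR's test. *Ddhd1* ran from 96.3 to 105.3 CPM in the higher and from 86.3 to 101.9 CPM in the lower class. *Pcyt1b* averaged 72.4 CPM in the higher and 73.3 CPM in the lower class, but its classes differed in opposite ways by genotype. In WT mice it had 56.3 and 61.0 CPM in the lower and 62.9 to 67.8 CPM in the higher class. In KO mice its means were 87.9 CPM in the lower class, which held KO mouse 5, and 80.2 CPM in the higher. Without KO mouse 5 the log2 difference of *Pcyt1b* between the classes was 0.09 (adjusted p = 0.526 in edgeR's test). Among related genes outside the 9, *Gpat3*, an acyltransferase at the start of glycerolipid synthesis listed as *Agpat9*, was the 1 of 64 that passed, with a log2 difference of 0.72 (adjusted p = 0.0397 in edgeR's test). Its 4 mice of lower RIN had 2.18 to 3.45 CPM and its 6 mice of higher RIN 4.34 to 5.35 CPM, but the call was lost in 9 of the 10 fits that left out a mouse.

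**Figure D4:**
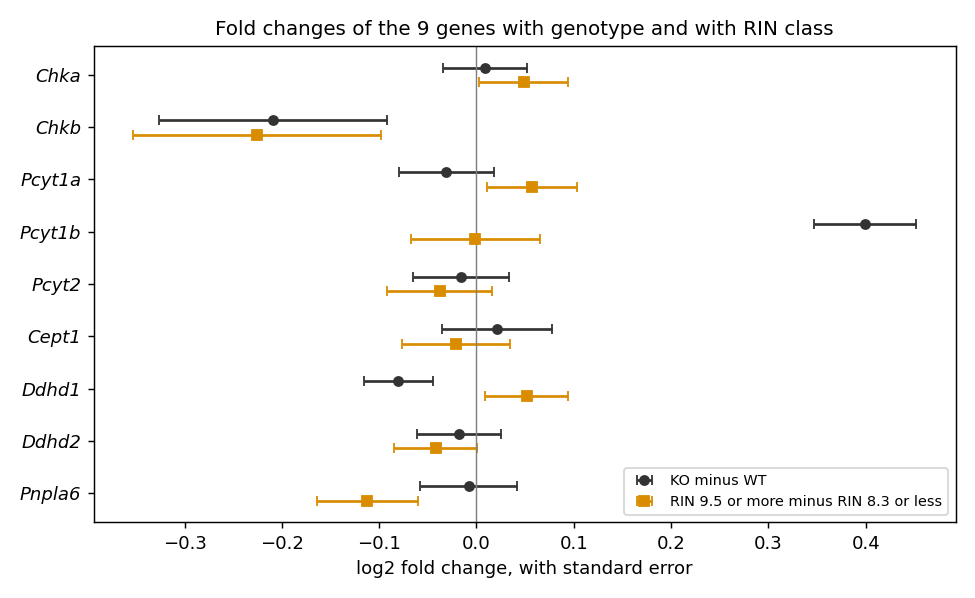
Log2 fold changes of the 9 genes with their standard errors, for KO minus WT (dark circles) and for a RIN of 9.5 or more minus 8.3 or less (orange squares). *Pcyt1b* stands at 0.40 for genotype and at 0 to 2 decimals for RIN, and the other 8 genes lie between -0.23 and 0.06 for either.

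Among WT mice the coefficient of variation was 1.86% for *Ddhd1*, 2.16% for *Chka* and 3.05% for *Ddhd2*, against a median of 5.0% over the 752 genes whose mean CPM lay between those of *Ddhd2* and *Ddhd1*. The other genes had 3.21% for *Pcyt1a*, 4.45% for *Cept1*, 5.40% for *Pcyt2*, 5.66% for *Pnpla6*, 6.69% for *Pcyt1b* and 11.2% for *Chkb*, the least counted. The median was 6.99% over the 8645 genes in the range of mean CPM of the 9. As the list was selected on the WT against KO values, the low spread of *Ddhd1* is not an independent trait. Among KO mice the coefficient was 5.20% for *Ddhd1* and 9.19% for *Pcyt1b*, and both values carried KO mouse 5. The KO medians were 5.45% over the same 752 genes and 7.87% over the same 8645, so *Ddhd1* was near the background in KO mice. With genotype means removed, the transcripts most like *Ddhd1* over the 10 mice were *Upf2*, *Samd4* and *Zfp180*, with Pearson's r of 0.98, 0.98 and 0.97 as the measure of likeness. Those most like *Pcyt1b* were *Rpl41*, *Hist3h2ba* and *Tacc3*, with r of 0.95, 0.94 and 0.94. Without KO mouse 5 these values fell to between 0.86 and 0.90 over 9 mice, and they were picked as the highest of all tested genes.

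The rest of the pathway was taken as 67 genes by function, 64 of which passed the filter, and each was tested for genotype with adjustment over all genes. This list too was made with earlier results of these mice known, so its calls are not independent evidence. *Etnppl* was past FDR < 0.05 and higher in KO mice, and 0 genes were lower, beside the 0.600% and 0.244% of all genes. An unadjusted p under 0.05 was held by 8 of the 64 (12.5%) and by 10.6% of all tested genes, so this share was near the background. The median log2 fold change was -0.02, with 24 genes above and 40 below 0. *Etnppl* encodes the lyase that breaks down phosphoethanolamine, the intermediate that PCYT2 uses, and is known as an astrocyte gene. *Etnppl* had 32.8, 33.5, 31.9, 41.3 and 41.8 CPM in KO mice 1 to 5. WT mice 1 to 5 had *Etnppl* at 25.4, 28.6, 22.4, 24.99 and 31.8 CPM. Each KO mouse lay above each WT mouse, KO mouse 3 above WT mouse 5 by the smallest margin. The log2 fold change of *Etnppl* was 0.45 (SE 0.05, adjusted p = 0.000404 in the edgeR fit over all genes). It stayed past the threshold in all 10 fits that left out a mouse, but not without surrogate variables (log2 fold change 0.45, adjusted p = 0.14 in edgeR's test) or with RIN in their place (0.45, adjusted p = 0.0851), where the fold was as large, nor with the striatal score (0.31, adjusted p = 0.163), where it was smaller. Without KO mouse 3 the KO mean of *Etnppl* was 37.4 ± 4.86 CPM (SD, n = 4). Summed astrocyte markers were at 1128 to 1437 CPM in KO mice and 1092 to 1197 CPM in WT mice, none of the 5 passed FDR < 0.05 and none was at 0. Their part in the result was not tested.

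By role, the wider genes gave no further calls, and the gene of highest level per length (RPKM) is given for each. Of 7 choline transporters that passed the filter, none was past the threshold, and the highest per length, *Slc44a1*, had 99.3 CPM in KO and 100.1 CPM in WT mice. *Slc44a4*, named after its values were seen, did not overlap between the genotypes, with 0.0626 to 0.278 CPM in KO and 0.306 to 0.455 CPM in WT mice, close to the level of 3 counts. Its log2 fold change of -1.33 (SE 0.51) had an adjusted p = 0.337 in edgeR's test. Of 8 genes of the ethanolamine branch and head group exchange, *Etnppl* was the 1 called, while the ethanolamine kinase *Etnk1* had 472.8 and 484.4 CPM. *Chpt1*, which shares the last choline step with CEPT1, had 62.3 CPM in KO and 63.3 CPM in WT mice. The highest per length of 11 genes that supply the glycerolipid backbone was *Agpat3*, with 360.0 and 353.3 CPM, and that of 8 genes of acyl chain remodelling was *Lpgat1*, with 406.1 and 429.2 CPM. Among 18 other phospholipases *Pla2g7*, which hydrolyses platelet-activating factor, was the highest per length (38.3 RPKM over the 10 mice), with 103.9 ± 9.70 CPM among KO against 118.8 ± 10.8 CPM among WT mice (SD, n = 5 each). Its log2 fold change of -0.18 had an adjusted p = 0.204 in edgeR's test. Among 11 genes of lysolipid and head group breakdown the highest per length was *Gde1* (149.9 RPKM over the 10 mice), with 253.5 and 254.0 CPM in KO and WT mice. None of the 7 transporters, 11 backbone, 8 remodelling, 18 phospholipase and 11 breakdown genes passed in edgeR's test, where 1, 2, 1, 1 and 2 of them had an unadjusted p under 0.05, which 10.6% of all genes had.

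**Figure D5:**
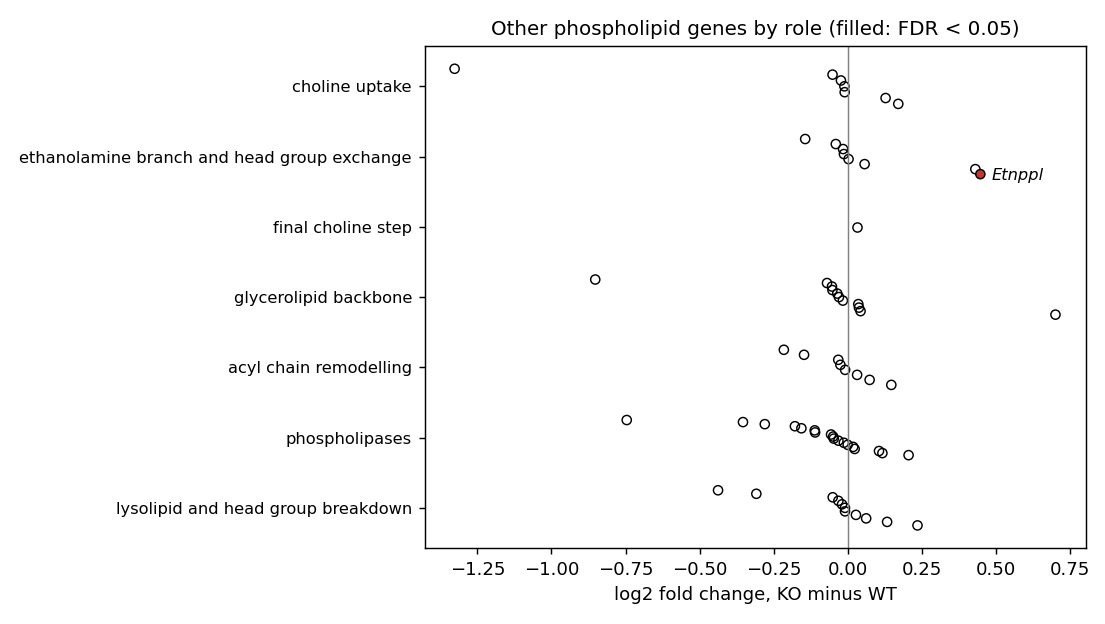
Log2 fold changes, KO minus WT, of the 64 other phospholipid genes that passed the filter, in rows by role, filled where FDR < 0.05. *Etnppl*, at 0.45, is the filled point, and the points furthest to the left and right, at -1.33 and 0.70, are open.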

How the data were processed

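Bulk RNA-seq libraries of the PFC, 5 from WT and 5 from *Zbtb16* KO mice, were analysed. Per the labels and the methods of the study, the authors aligned reads to mm10 with STAR (2.7.1a), kept unique reads and deposited counts per protein-coding gene (Gencode M21, HTSeq 0.9.1, intersection-strict, by exon), without normalization. Whether counting used strand is not given in the sources used here.

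Counts were filtered with filterByExpr and scaled by TMM. The genotype contrast used edgeR (4.0.16, R 4.3.3; quasi-likelihood test) with a model of genotype and 3 surrogate variables from sva (3.50.0, on log2(CPM + 1), seed 1), with Benjamini-Hochberg adjustment over 14344 genes at 0.05. RIN classes were compared by the same test with genotype as covariate. RPKM is the TMM-scaled CPM per kilobase of exon in Gencode M21. Alternatives included DESeq2 (1.42.0), and likeness between genes was taken on log2 CPM (prior count 2). The scripts were tested on simulated counts.

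The 9 genes, the other lists and the tests were chosen with earlier results of these data known. Named were the 9 genes, *Zbtb16*, genes of the wider list past the threshold, the gene of highest RPKM in each role, and the 3 genes most like *Ddhd1* and *Pcyt1b*. *Gpat3*, *Slc44a4* and the interaction of genotype with RIN class were added after values were seen. Symbols were matched through RefSeq synonyms. *Drd1* of the striatal list is not used here. A further marker of the excitatory neuron list is not reported here, and its sums leave it out. At 30220122 to 51231439 counts per mouse, a gene needs 3 counts, or 0.058 to 0.0997 CPM, to be seen. This covers counting error only, since reads carry no molecular identifiers.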

Additional observations from a re-analysis of the deposited data

Results flagged for a closer look

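KO mouse 5 was flagged for *Pcyt1b* and for *Ddhd1*, since it lay far from the other 4 mice of its group. *Pcyt1b* was at 96.8 CPM in KO mouse 5 and at 79.1 to 81.9 CPM in the other KO mice, a gap of 0.842 of the range of the group. *Ddhd1* was at 86.3 CPM in KO mouse 5 and at 96.3 to 98.4 CPM in the others, a gap of 0.822 of the range. The limit for 5 mice is 0.71, and chance passes it in about 1 of 20 groups, where 22 groups of 5 mice were checked. The library of KO mouse 5 was also apart over genes in general. Its counts differed from those of each other KO mouse with a chi-square per degree of freedom of 23.9 to 31.1. Pairs of the other KO mice gave 6.85 to 13.8 and pairs of WT mice 5.78 to 18.0, on a measure that grows with library size. KO mouse 5 also had the lowest RIN, 8.1, and the largest library, 51231439 counts, and their part in these values was not tested.

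*Chka* was flagged because its genotype difference pointed in opposite ways in the RIN classes. With a RIN of 9.5 or more, the 3 KO mice had 80.1 to 85.0 CPM and the 3 WT mice 75.7 to 78.7 CPM. With a RIN of 8.3 or less, the 2 KO mice had 74.3 and 74.4 CPM and the 2 WT mice 79.2 and 80.3 CPM. The genotypes were separated in opposite ways like this for 1.12% of all tested genes. An interaction term in edgeR's quasi-likelihood test put the difference between the classes at 0.17 (SE 0.08, unadjusted p = 0.053, adjusted p = 0.996). Of the 14344 genes tested, 0 passed FDR < 0.05 for this term. An unadjusted p under 0.05 was held by 505 of the 14344, and *Chka* was not among them.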

How the results depend on the processing

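*Pcyt1b* was past the threshold in every alternative but the striatal score, which left 0 of the 9 genes. Its log2 fold change was 0.33 to 0.47 over the 10 fits without 1 mouse. *Ddhd1* stayed between -0.11 and -0.07 throughout. Over all genes, the 121 past the threshold became 30 without surrogate variables, 38 with RIN, 6 with the striatal score, 24 with a replicate block in their place and 229 with DESeq2, and 39 to 248 with a mouse left out. The wider list had 0 genes past it without surrogate variables, with RIN or with the striatal score, and 1 to 2 with a mouse left out, the second being *Pla2g7* without KO mouse 2. The RIN contrast gave 48 genes, 273 with DESeq2, 121 without a filter and 1 to 73 with a mouse left out. In it the wider list gave 3 with DESeq2, 2 without a filter and 0 to 1 with a mouse left out. With the longest transcript as length, RPKM was 14.9 for *Pcyt1b*, 8.98 for *Pcyt1a*, 35.0 for *Pcyt2*, 16.9 for *Chka* and 2.10 for *Chkb*. In the same way it was 14.9 for *Cept1*, 10.1 for *Ddhd1*, 17.9 for *Ddhd2* and 8.73 for *Pnpla6*. The causes of these changes were not tested.

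Replicate numbers join different mice, and deviations of same-numbered mice from their group means correlated at -0.06 to 0.16 over genes, with 2 of 5 KO mice closest to the WT mouse of their number. With the replicate block, 1 of the 9 genes and 1 of the wider list were past the threshold.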
